A study of Homo sapiens with 2 samples.

Results

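The sites described here are those that hnRNPM, an RNA-binding protein that takes part in splicing, formed on the RNA of 7 genes of the TGF-beta pathway: the ligand gene TGFB2, the matrix gene LTBP1, the receptor genes TGFBR1, TGFBR2 and TGFBR3, and the signal carriers SMAD2 and SMAD3. A site was taken when its middle lay inside the gene's window (GRCh37) and it was on the strand of the gene. This gave 94 sites of the 54373 in the whole list (0.173%), and they lay in 4 of the 7 genes. SMAD3 held 40 sites, SMAD2 held 33, TGFBR2 held 18 and TGFBR1 held 3. No site was listed in TGFBR3, LTBP1 or TGFB2. Whether the list as used here holds every site that was called is not known, so a count of 0 says only that this list has none there.

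The study mapped hnRNPM by iCLIP in HMLE, a line of human breast epithelial cells that has been immortalised. In iCLIP, proteins are bonded to RNA in the cell by ultraviolet light, the protein of interest is pulled down with an antibody, here one against hnRNPM, and stops of reverse transcription mark the linked base. All of the data came from 1 group of 2 libraries, both of wild-type cells with DMSO and numbered as biological replicates 1 and 2. The deposited list had 1 value per site and none per library, so it holds no contrast of conditions and no spread between replicates, and how deeply each library was read is unknown here. Each interval was 21 nt wide and carried the authors' whole-number score, called the height here. In the whole list its median was 11, with quartiles of 8 and 17. No RNA level was measured alongside, so a gene with many sites cannot be told apart from a gene with much RNA.

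TGF-beta is secreted in a latent form that LTBP1 ties to the extracellular matrix, and TGFB2 encodes one of its isoforms. TGFBR3, also called betaglycan, presents ligand to the signalling receptors. TGFBR2 binds ligand and phosphorylates TGFBR1, which in turn phosphorylates SMAD2 and SMAD3, and these enter the nucleus with SMAD4 to regulate transcription. In mammary epithelial cells the pathway is known for driving the epithelial-mesenchymal transition.

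The ligand gene TGFB2, the matrix gene LTBP1 and the co-receptor gene TGFBR3 carried no listed site. The TGFB2 window (chromosome 1, 218518676 to 218617961, plus strand) was 99.3 kb long. Its nearest listed sites on the same strand lay 2730 kb upstream and 738 kb downstream. The LTBP1 window (chromosome 2, 33172369 to 33624576, plus strand) was 452 kb long and the longest of the 7. On the same strand a site of height 9, from 33141308 to 33141328, lay 31.1 kb upstream of it. The next site downstream on that strand was 2960 kb away. The co-receptor gene TGFBR3 (chromosome 1, 92145900 to 92371559, minus strand) had a window of 226 kb. Its nearest sites on the same strand lay 348 kb upstream and 293 kb downstream. Together these 3 windows spanned 777 kb of the 1143 kb examined, so most of the length of the 7 genes held no listed site.

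**Figure D1:**
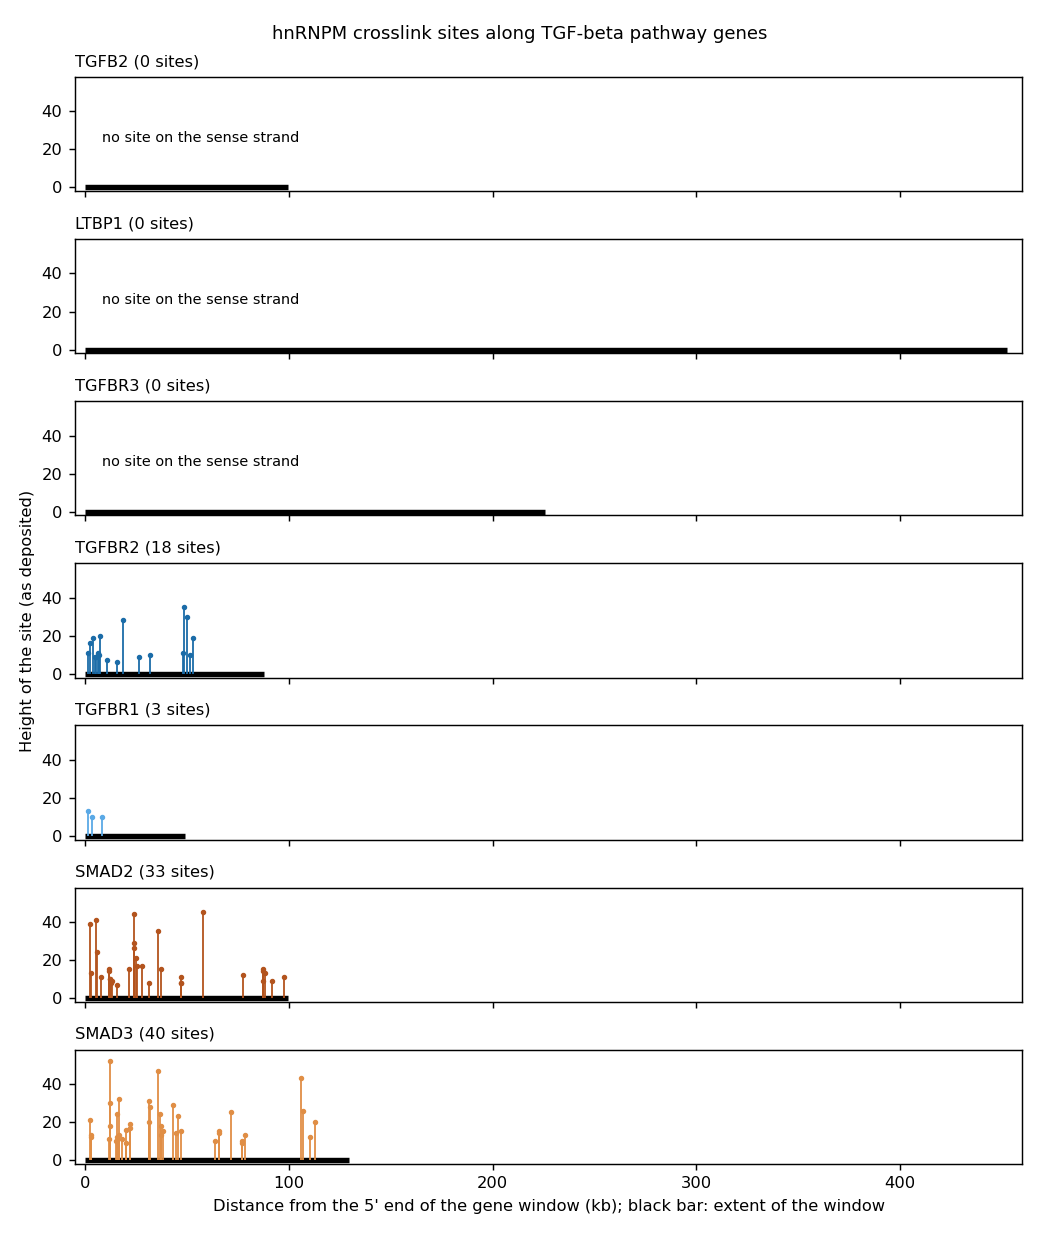
Sites along the 7 gene windows, with the distance from the 5′ end of the window in kb on the horizontal axis and the height of each site, as deposited, on the vertical axis; the black bar is the window. SMAD3 (40 sites) and SMAD2 (33 sites) are the most densely marked, and the windows of TGFB2, LTBP1 and TGFBR3 are empty.

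The numbers that the authors gave to sites and tag clusters bear on the spans around the empty genes as well. A tag cluster was read as a group of reads at 1 place and on 1 strand. Site names hold a running number up to 224765, of which 24.2% are listed, and a cluster number. Running numbers rose, and cluster numbers never fell, with position in all 54327 neighbouring pairs of the same chromosome and strand. Numbers missing between neighbours were therefore read as candidates that did not enter the list, a reading the file does not state. The largest P that the authors deposited with a listed site was 0.000999. No P is given for numbers that are missing.

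Between the sites that flank LTBP1, 3443 kb apart, only 4 running numbers were passed over, while 1796 tag clusters were. Around TGFBR3 the counts were 4 running numbers and 586 clusters over 866 kb. Around TGFB2 they were 6 running numbers and 1650 clusters over 3567 kb. Even if all of these running numbers belonged to the gene, LTBP1 would have 0.885 per 100 kb of window, TGFBR3 1.77 and TGFB2 6.04, against 3.85 over the whole list. This upper bound lay below the whole list for LTBP1 and TGFBR3 and above it for TGFB2. Tag clusters were thus numbered in these spans, at 52.2 per 100 kb around LTBP1, 67.6 around TGFBR3 and 46.3 around TGFB2, against 83.1 over the whole list. These spans reach far beyond the genes, and which clusters lay inside a window is not given by the list.

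Over the same kind of span, between the listed sites that flank the window, running numbers came at 26.1 per 100 kb for SMAD3, 7.60 for SMAD2, 4.95 for TGFBR2 and 1.73 for TGFBR1. The empty genes had 0.462 (TGFBR3), 0.168 (TGFB2) and 0.116 (LTBP1), while TGFBR1 was below the 3.85 of the whole list. Listed sites are counted among the running numbers, so a lower rate in the spans without sites is partly fixed by their choice. Cluster numbers over these spans came at 153 per 100 kb for SMAD3 and 91.6 for SMAD2, but at 55.8 for TGFBR2 and 54.2 for TGFBR1, within the range of the empty genes.

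Within the genes the spans were shorter and are not comparable with those above. From the first to the last site, running numbers came at 175 per 100 kb in SMAD3, 132 in TGFBR2, 130 in SMAD2 and 86.9 in TGFBR1. These spans begin and end at a site, which raises the values. The share of running numbers that was listed was 20.8% in SMAD3 (40 of 192), 26.6% in SMAD2 (33 of 124) and 26.5% in TGFBR2 (18 of 68), beside 24.2% in the whole list. In TGFBR1 it was 3 of 6.

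**Figure D2:**
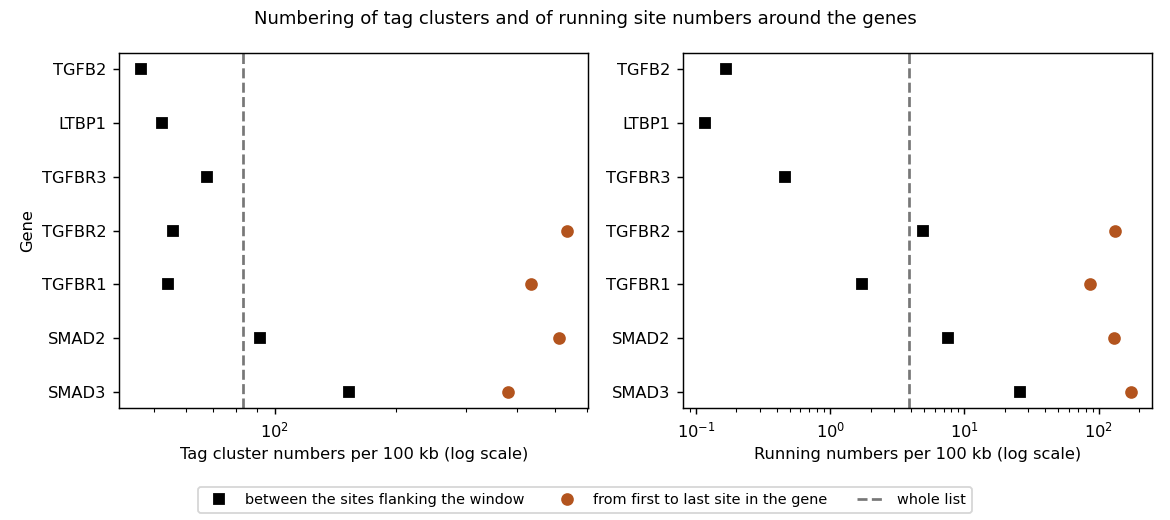
Tag cluster numbers (left) and running site numbers (right) per 100 kb on log axes, for each gene; squares cover the span between the listed sites that flank the window, circles the span from the first to the last site in the gene, and the dashed line is the whole list. For LTBP1, TGFBR3 and TGFB2 the running numbers fall far below the whole list. That is partly fixed by the choice of spans without listed sites, since listed sites count among the running numbers. Their cluster numbers, at 46.3 to 67.6, lie nearer to the list's 83.1 and beside those of TGFBR1 and TGFBR2.

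The receptors that signal were marked unequally. TGFBR1 (chromosome 9, 101867412 to 101916474, plus strand, 49.1 kb), the type I receptor kinase, had 3 sites with heights of 13, 10 and 10. They lay 1.10, 3.31 and 8.01 kb from the 5′ end of the window, each in its own tag cluster, and the remaining 41.1 kb held none. The tallest ran from 101868505 to 101868525, with a P deposited by the authors of 7.39e-12. The heights of all 3 sites lay between the quartiles of the whole list.

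TGFBR2 (chromosome 3, 30647994 to 30735634, plus strand, 87.6 kb), the type II receptor kinase, had 18 sites. Their heights ran from 6 to 35, and their median of 11 was that of the whole list. Its density was 2.05 sites per 10 kb, against 0.611 in TGFBR1. The sites fell into 2 blocks, a block being sites with gaps of at most 10 kb, a limit chosen after the values were seen. The first block had 13 sites between 1.21 and 31.6 kb from the 5′ end, with a median height of 10. The second had 5 sites between 48.1 and 52.9 kb, all in 1 tag cluster, with a median height of 19. This second block held 38.9% of the gene's summed height of 270 and its 2 tallest sites. Those had heights of 35 (from 30696412 to 30696432) and 30 (from 30697762 to 30697782), and the third, of height 28 (from 30666666 to 30666686), stood alone in its cluster at 53.8 times its expected height. Expected height is the value marked PH0 in the file, 1 per tag cluster, read as the height that the reads of the cluster would give. Beyond 52.9 kb the last 34.8 kb of the window held no site.

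SMAD2 and SMAD3, the receptor-regulated signal carriers, held 73 of the 94 sites (77.7%). SMAD2 (chromosome 18, 45357922 to 45457517, minus strand, 99.6 kb) had 3.31 sites per 10 kb and SMAD3 (chromosome 15, 67358195 to 67487533, plus strand, 129 kb) had 3.09. For scale, the list was cut into regions of 100 kb on 1 strand. Of the 8362 regions with any site, 21.4% held at least 10 and 1.48% held at least 33, the number in SMAD2. A window placed on a gene and a region placed without regard to genes are not the same measure, so these shares only place the values.

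SMAD3 had heights from 9 to 52, with a median of 16.5 and quartiles of 12.8 and 24.2. Its tallest site, of height 52, ran from 67370444 to 67370464 and was 73.2 times its expected height, the highest ratio among the 94 sites. It shared a tag cluster with 3 other sites within 493 nt, with heights of 11, 30 and 18. The next in height were 47 (from 67393959 to 67393979), in a cluster of 5 sites over 2421 nt, and 43 (from 67463863 to 67463883), in a cluster of 2. These 3 sites lay 12.3, 35.8 and 106 kb from the 5′ end, the last of them towards the 3′ end of the window.

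The sites of SMAD3 formed 3 blocks. The first had 29 sites between 2.52 and 46.8 kb, with a median height of 18 and 75.2% of the summed height of 794. The second had 7 sites between 63.5 and 78.6 kb, with a median height of 13, and the third had 4 between 106 and 113 kb, with a median of 23. Site density within the blocks was 6.54, 4.64 and 5.84 per 10 kb, over lengths of 44.3, 15.1 and 6.85 kb. The gap limit keeps density from falling low but leaves length free. Blocks begin and end at a site, which raises the density of short ones most.

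SMAD2 had heights from 7 to 45, with a median of 14 and quartiles of 10 and 21. Its tallest site, of height 45 (from 45399894 to 45399914), was alone in its tag cluster and had no other site within 10 kb. The next had heights of 44 (from 45433743 to 45433763) and 41 (from 45452328 to 45452348). The first of these lay in a cluster of 4 sites whose heights were 44, 29, 26 and 21. The fullest cluster of the gene had 6 sites over 1657 nt, and its heights of 8 to 15 were low by comparison.

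The sites of SMAD2 were also gathered towards the 5′ end. A first block of 25 sites between 2.45 and 46.9 kb had a median height of 15, and 78.0% of the summed height of 583. A last block of 7 sites between 77.3 and 97.6 kb reached 15 at most, with a median of 12. The single tallest site stood between them, at 57.6 kb. The gene is longer in GENCODE 29 (122 kb) than the window, and the nearest listed site on the same strand outside the window was 685 kb away.

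**Figure D3:**
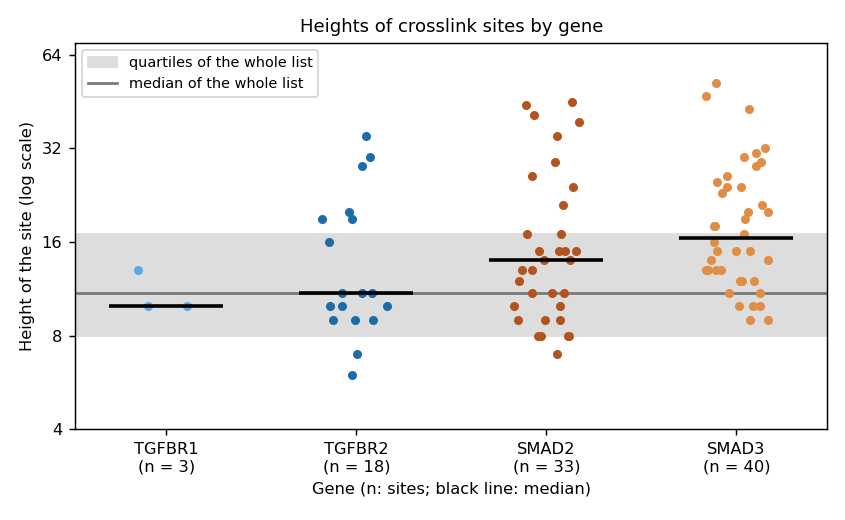
Height of every site (points, log scale) in the 4 genes with sites, with the median of each gene as a black line and the median and quartiles of the whole list in grey. The medians are 10 in TGFBR1, 11 in TGFBR2, 14 in SMAD2 and 16.5 in SMAD3, and the ranges of the 4 genes overlap.

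Heights of the 94 sites ran from 6 to 52, with a median of 14 and quartiles of 10 and 22.5. In all, 37 of them (39.4%) reached 17, the upper quartile of the whole list, which 27.2% of all sites reached. By gene these were 20 of 40 in SMAD3, 11 of 33 in SMAD2, 6 of 18 in TGFBR2 and 0 of 3 in TGFBR1. None came near the list's tallest site, at 1969. The smallest P deposited by the authors, 1e-100, was given to 15 of the 94 sites (16.0%) and to 16.2% of all sites. The pooled share was close to the list's, but the counts by gene were uneven. It was 11 of 40 in SMAD3, 2 of 33 in SMAD2, 2 of 18 in TGFBR2 and 0 of 3 in TGFBR1. This value did not follow height. In SMAD3 the tallest site, of height 52, had a deposited P of 3.36e-13, and a site of height 19 had 1e-100.

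Measured against the level of their own tag clusters the sites were close to the list. Height over expected height had a median of 22.6 over the 94 sites and 23.7 in the whole list. It was 23.9 in TGFBR2, 23.7 in SMAD3, 21.9 in SMAD2 and 20.8 in TGFBR1. The median expected height itself was 0.685 over the 94 sites and 0.51 in the list, with 0.8 in SMAD3, 0.64 in SMAD2, 0.52 in TGFBR2 and 0.48 in TGFBR1. The order of the 4 genes by median expected height was the same as by median height, with SMAD3 first and TGFBR1 last.

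Sites often shared a tag cluster. The 94 sites lay in 53 clusters, and 59 of the sites (62.8%) had another site in their cluster, against 43.4% of all sites. This held for 28 of 40 sites in SMAD3, 22 of 33 in SMAD2, 9 of 18 in TGFBR2 and 0 of 3 in TGFBR1. Sites of 1 cluster share its reads and its expected height, so they are not separate observations.

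Neighbouring sites were a median of 1286 nt apart over the 90 gaps within genes. Gaps of at most 50 kb in the whole list had a median of 1421 nt. The median was 960 nt in SMAD3, 1424 nt in SMAD2, 1444 nt in TGFBR2 and 3452 nt in TGFBR1. The closest sites of SMAD3 were 31 nt apart and those of SMAD2 33 nt, while none in TGFBR2 were closer than 208 nt. Among the 5 pairs under 60 nt apart the upstream site was taller in 3, at heights of 52 and 18, 32 and 13, and 29 and 26. The downstream site was taller in 1, at 14 and 15, and 1 pair was equal, at 8 and 8.

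All 4 genes with sites had more of them on the 5′ side of the middle of the window than on the 3′ side. The count was 30 of 40 in SMAD3 (75.0%, 95% Wilson interval 59.8 to 85.8), 25 of 33 in SMAD2 (75.8%, 59.0 to 87.2), 13 of 18 in TGFBR2 (72.2%, 49.1 to 87.5) and 3 of 3 in TGFBR1. Together it was 71 of 94 (75.5%, 66.0 to 83.1). The intervals cover counting error only and take sites as independent, which those of 1 cluster are not, so they are too narrow. The first 25% of the window alone held 20 sites in SMAD3, 17 in SMAD2, 11 in TGFBR2 and 3 in TGFBR1, and the last 25% held 4, 7, 0 and 0.

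Heights did not follow position in the same way in each gene. The median height on the 5′ and the 3′ side of the middle was 17.5 and 14.5 in SMAD3, 15 and 12.5 in SMAD2, and 10 and 19 in TGFBR2. The 3′ value of TGFBR2 came from the 5 sites of a single tag cluster.

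A lean towards the 5′ side was common in the list. Each of the 4 genes was a stretch of its own, that is, a run of sites on 1 strand with gaps of at most 50 kb. Among the 1637 stretches of at least 10 sites, 60.0% had over 50% of their sites on the 5′ side of the middle of their span, from first to last site, and the median share was 57.1%. All 3 of the genes with at least 10 sites did so, with 75.8% in SMAD2, 72.5% in SMAD3 and 66.7% in TGFBR2. Shares at least as high were found in 14.8%, 20.2% and 31.9% of all stretches. In site density per 10 kb of span the 3 genes lay close together, with 3.64 in SMAD3, 3.48 in TGFBR2 and 3.47 in SMAD2. Of all stretches, 21.7% to 23.8% were at least as dense. Per 10 kb of window TGFBR2 was lower, at 2.05, against 3.09 in SMAD3 and 3.31 in SMAD2. The span of TGFBR2 leaves out the 34.8 kb after its last site. In number of sites, 12.5% of these stretches held at least as many as SMAD3, 17.9% as SMAD2 and 51.9% as TGFBR2. In median height, 14.2% were at least as tall as SMAD3, 29.8% as SMAD2 and 64.8% as TGFBR2.

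**Figure D4:**
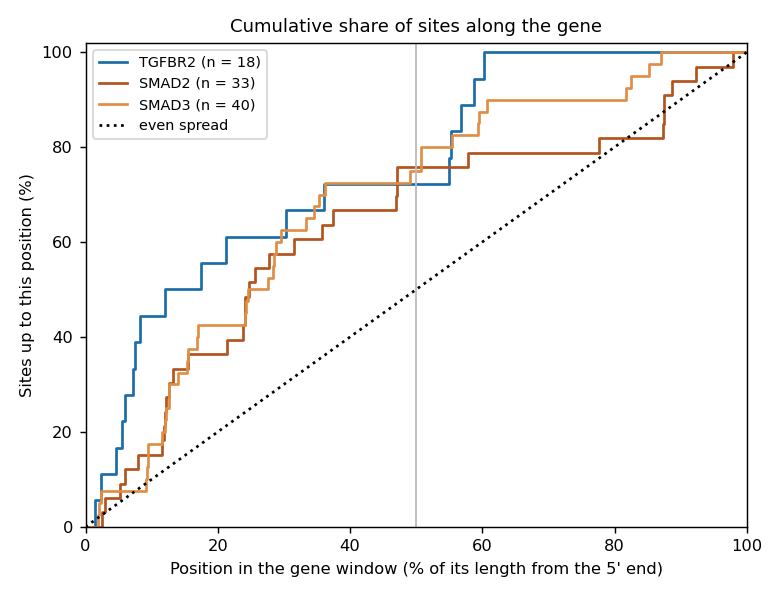
Share of the sites of TGFBR2, SMAD2 and SMAD3 found up to each position, in percent of the window from its 5′ end; the dotted line is an even spread and the grey line marks the middle. At the middle the 3 genes stand at 72.2%, 75.8% and 75.0%, and the flat steps are the site-free stretches.

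The stretches between neighbouring sites of a gene were not free of tag clusters. Only these stretches are ranked here. The parts after the last site were left out, at 41.1 kb in TGFBR1, 34.8 kb in TGFBR2, 16.8 kb in SMAD3 and 2.03 kb in SMAD2. The parts before the first site were left out as well. The longest between neighbouring sites in SMAD3, of 27.1 kb (67436794 to 67463862), passed over 168 cluster numbers and 12 running numbers. The next, of 16.7 kb (67405037 to 67421687), passed over 84 and 13. In SMAD2 the longest, of 19.7 kb (45380250 to 45399893), passed over 129 cluster numbers and 4 running numbers, and the next, of 10.7 kb (45399915 to 45410576), 63 and 5. In TGFBR2 a stretch of 16.6 kb (30679566 to 30696123) passed over 104 and 4, and one of 7.90 kb (30666687 to 30674560) 55 and 2. The gaps of TGFBR1, of 4.69 kb (101870736 to 101875407) and 2.21 kb (101868526 to 101870714), passed over 16 and 2, and 11 and 1. In the longest stretch of SMAD3 clusters came at 620 per 100 kb, against 235 in its first block with 29 sites. The same comparison gave 656 and 423 in SMAD2, and 627 and 563 in TGFBR2. In TGFBR1 the longest stretch, at 341, is itself part of the gene's only block of 6.90 kb, at 435. It is therefore not the same comparison, and the shorter gap of TGFBR1 came at 498. How reads were joined into clusters is not given in the sources used here, so a number of clusters is not a number of reads.

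The opposite strand of all 7 windows was empty. With 94 sites on the sense strand and 0 on the other, the sense share was 100% (95% Wilson interval 96.1 to 100). The interval takes sites as independent, but the 94 sites lay in 53 tag clusters of 4 genes, so it is too narrow. The sense share of other genes in the list was not analysed here. Whether a share of 100% is particular to these genes was therefore not tested. The nearest site on the opposite strand was 33.6 kb from the SMAD3 window and the next nearest 175 kb from that of TGFBR3.

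Whether a site lay in an exon or an intron, and which bases it covered, was not analysed here, since the annotation at hand (GENCODE 29) is on GRCh38 and no position was carried between builds. It gives lengths: exons of any transcript make up 6.93% of SMAD3 (ENSG00000166949.15), 29.8% of SMAD2 (ENSG00000175387.15), 5.37% of TGFBR2 (ENSG00000163513.17) and 13.6% of TGFBR1 (ENSG00000106799.12). The share was 3.85% in TGFBR3 (ENSG00000069702.10), 1.62% in LTBP1 (ENSG00000049323.15) and 5.24% in TGFB2 (ENSG00000092969.11). Long introns occurred in genes with and without sites. The longest intron of the principal transcript was 98.5 kb in SMAD3, 37.8 kb in TGFBR2, 33.6 kb in SMAD2 and 23.6 kb in TGFBR1, and among the genes without sites it was 64.0 kb in TGFBR3, 58.1 kb in TGFB2 and 51.9 kb in LTBP1. By total intron length of the principal transcript, LTBP1, with 260 kb, and TGFBR3, with 199 kb, had 0 sites, and SMAD3 had 40 with 123 kb. The LTBP1 gene is 453 kb long, so its principal transcript leaves out part of it. Whether site counts depend on intron length was not tested.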

How the data were processed

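The input was 1 list of hnRNPM crosslink sites from 2 iCLIP libraries of HMLE cells, on GRCh37 per the submitters' processing notes. Each site's score (the height), as deposited by the authors, was the same as the value marked PH in its name. For the aligner, the site caller, duplicate handling and pooling of libraries: not given in the sources used here. Gene windows and strands were given at the start of the work, and a site belonged to a gene when its middle lay in the window. Members and lists were chosen with earlier results of these data known. All 7 genes were described. For those with sites, the 3 tallest sites and the 2 longest stretches between neighbouring sites were given. There was no test, because the list has 1 group and no value per library. Other genes of the pathway were not analysed here, because no GRCh37 annotation was used. Counting was tested on simulated data with planted sites. Alternatives were sites at or above the median height, sites within 50 nt merged, whole intervals inside the window, windows shortened by 1 kb at each end, and each gene left out. Software was pandas 2.3.3 and numpy 2.4.6 under Python 3.11.15, with intervals from scipy 1.17.1 and figures from matplotlib 3.10.9.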

Additional observations from a re-analysis of the deposited data

How the results depend on the processing

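Of 59 alternative values of the summary measures, 57 stayed within 1.5 times the reported count or within the 95% binomial interval of the reported value. Part of these could not move. Leaving out TGFBR3, LTBP1 or TGFB2 removes no site, and the sense share stays at 100% because the opposite strand holds no site. The median height of 14 became 17 with only sites at or above the list's median height, by the construction of that alternative, and 12.5 without SMAD3, the gene with the tallest median. The share on the 5′ side of the middle ranged from 73.9% to 76.3%, the median gap from 1126 to 1640 nt, and the median ratio to expected height from 22.0 to 24.4. When low sites were left out, counts by gene fell beyond 1.5 times only for TGFBR1 (3 to 1) and TGFBR2 (18 to 10). Within that limit, SMAD2 fell from 33 to 23 and SMAD3 from 40 to 35. Extending the windows of the 4 genes with sites would add none on the strand of the gene within 70.6 kb. No paired analysis was possible because both libraries belong to 1 group and share 1 list, which also prevents leaving out a replicate. The depth is unknown here, so how many low sites were missed cannot be stated.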
